A study of Mus musculus with 6 samples.

Results

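Lipases, lipid droplet proteins and the enzymes that make triglyceride were followed as a set of 10 genes, out of 21878 genes counted, in mouse macrophages treated with β-elemene or with PBS. The set was Lpl, Lipg, Angptl4, Pnpla2, Lipe, Mgll, Plin2, Hilpda, Dgat1 and Dgat2, matched by gene symbol in the count table. The genes were chosen from results of this same comparison, so their values are a description. Which of them edgeR called across all genes is given only beside the share of all genes called, with no p-value, and nothing is read from that count. The wild-type macrophages had been grown from marrow of C57BL/6 mice in 50 ng/mL of macrophage colony-stimulating factor. All of them had shared medium for 48 h with LLC cells (mouse lung carcinoma) across a transwell membrane with 0.4 µm pores. After a change of medium, 3 libraries came from cells given 100 µg/mL of the plant sesquiterpene β-elemene for 24 h, and 3 from cells given phosphate-buffered saline (PBS) at a matching volume for the same time. No group lacked the LLC co-culture, and the labels name no drug solvent in the PBS group. In the submitters' library names the β-elemene libraries are M1 and the PBS libraries M2, with no statement of what either letter means. The labels also do not say whether libraries of a group came from separate mice or cultures, so the spread between them may be technical.

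Triglyceride enters and leaves a macrophage by a chain of enzymes. Lipoprotein lipase (Lpl) and endothelial lipase (Lipg) act outside the cell on lipids carried by lipoproteins, and angiopoietin-like 4 (Angptl4) inhibits lipoprotein lipase. Inside the cell, Dgat1 and Dgat2 add the last fatty acid that turns diacylglycerol into triglyceride, which is stored in lipid droplets coated by perilipin 2 (Plin2). Adipose triglyceride lipase (Pnpla2), hormone-sensitive lipase (Lipe) and monoglyceride lipase (Mgll) then remove the fatty acids in that order, and Hilpda is a small droplet protein that inhibits Pnpla2. Macrophages are a known source of secreted lipoprotein lipase, and lipid-filled macrophages are known for their high Plin2.

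Promoter sequence was at hand for Mgll, Lipe, Plin2, Hilpda and Pnpla2, as 8 RefSeq entries of build GRCm38.p6 for these 5 genes. Lpl, Lipg, Angptl4, Dgat1 and Dgat2 had no entry. The windows below run from 170 bases before to 20 bases after an annotated start, 5′ to 3′ on the gene's strand. They are shown because Mgll, Lipe and Plin2 each held the E-box CACGTG, while Hilpda held only the shorter core ACGTG. Any tie between these letters and the fold changes was not tested. Capitals mark the match.
Mgll: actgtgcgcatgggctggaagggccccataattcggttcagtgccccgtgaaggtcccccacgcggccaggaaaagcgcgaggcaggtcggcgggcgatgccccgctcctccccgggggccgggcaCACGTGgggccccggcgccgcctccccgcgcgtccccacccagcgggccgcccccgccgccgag
Lipe: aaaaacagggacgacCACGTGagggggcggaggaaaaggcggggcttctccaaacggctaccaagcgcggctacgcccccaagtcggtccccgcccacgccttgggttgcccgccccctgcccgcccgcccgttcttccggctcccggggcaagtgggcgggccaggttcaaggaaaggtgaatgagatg
Plin2: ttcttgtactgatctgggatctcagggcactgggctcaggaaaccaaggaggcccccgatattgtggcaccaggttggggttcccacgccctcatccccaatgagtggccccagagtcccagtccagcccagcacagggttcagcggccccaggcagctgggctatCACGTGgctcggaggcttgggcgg
Hilpda: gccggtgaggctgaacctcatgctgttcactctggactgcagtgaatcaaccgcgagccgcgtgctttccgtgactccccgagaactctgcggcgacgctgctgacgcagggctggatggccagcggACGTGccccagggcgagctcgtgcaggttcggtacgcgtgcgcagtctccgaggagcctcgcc
The windows lie at chr6:88724242-88724431 (Mgll, plus strand), chr7:25395968-25396157 (Lipe, minus strand), chr4:86670040-86670229 (Plin2, minus strand) and chr6:29272456-29272645 (Hilpda, plus strand). The E-box, the palindrome bound by helix-loop-helix factors of the Myc, USF and SREBP families, began 44 bases before the start in Mgll, 155 before it in Lipe and 4 before it in Plin2. The core ACGTG of the site bound by hypoxia-inducible factors began 43 bases before the start in Hilpda. Every CACGTG contains this core. Each distance is to the RefSeq start used for that window, which need not be the first start of the gene. The Lipe window lies inside the gene's GENCODE M21 span, which ends at chr7:25398710 and is read on the minus strand. For Hilpda, the start used and the ACGTG lie inside the GENCODE M21 span, which begins at chr6:29272488. Over the 300-base entries searched on both strands, CACGTG was present in 3 of the 8 entries of these genes and in 7.15% of all 32851 mouse promoters. ACGTG was present in 5 of the 8 entries, from 4 genes, and in 19.6% of all promoters. The direct repeat bound by PPAR and RXR dimers, AGGTCA and again AGGTCA with any 1 base N between them, was in 0 of the 8 entries and in 0.0396% of all promoters. These matches describe letters only, and no binding was measured.

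The libraries held 18916844 to 20729887 counts each. All 10 genes passed the filter on low counts, Angptl4 only through the PBS group. Levels are CPM after TMM scaling, that is, counts scaled to a common library total, which is corrected by a factor taken from the bulk of its genes, and a log2 fold change is the β-elemene level over the PBS level, given with its SE. TMM factors ran from 0.794 to 0.812 in the treated libraries and from 1.24 to 1.26 in the others, so the choice of scaling moves all fold changes together. In edgeR's quasi-likelihood test with Benjamini-Hochberg adjustment over 11459 genes, 36.6% of all genes were called higher and 40.2% lower with β-elemene. Of the 10 genes, 6 were called higher (Lipg, Lpl, Mgll, Lipe, Plin2 and Dgat2), 1 lower (Angptl4), and 3 were not called (Pnpla2, Hilpda and Dgat1). The same 6 and 1 genes had groups of libraries that did not overlap, which held for 37.9% of all genes in the higher direction and 42% in the lower. The median log2 fold change of the 10 genes was 0.58, beside -0.06 over all genes tested. Their summed level after TMM scaling was 6859 CPM with β-elemene and 4074 CPM with PBS, most of it Lpl in both groups. The gap between these sums depends on the scaling: as a share of all counts, Lpl was 0.406% with β-elemene and 0.432% with PBS. In bulk RNA, fewer cells of a type and less RNA per cell cannot be told apart. The macrophage label held: all 7 macrophage markers passed the filter, and their summed level was 15150 to 15810 CPM in the treated libraries and 12410 to 13370 CPM in the PBS libraries. The 5 epithelial and carcinoma markers summed to at most 0.0615 CPM with β-elemene and 0.155 CPM with PBS, with Krt19 and Cldn4 at 0.

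**Figure D1:**
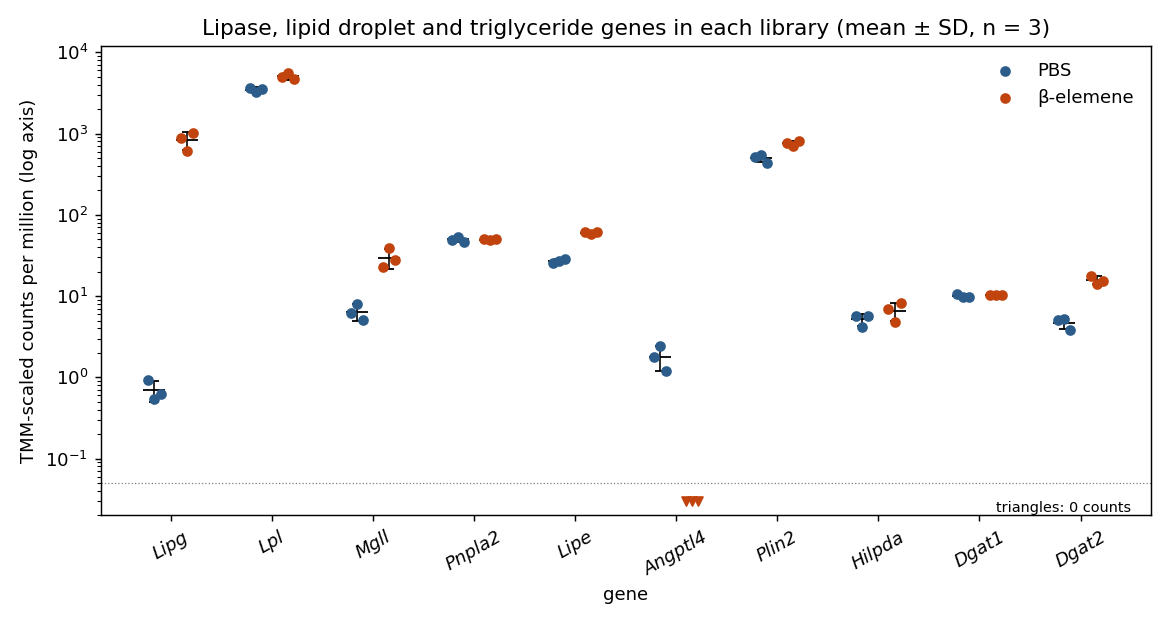
Level of each gene in each library, in TMM-scaled CPM on a log axis, with points for single libraries and bars for the mean ± SD of 3 libraries. Lipg moves from under 1 CPM to between 612.8 and 1017 CPM, Angptl4 has 0 counts in the β-elemene libraries (triangles), and Pnpla2, Hilpda and Dgat1 overlap between the groups; with library size alone as the scaling Lpl and Plin2 are slightly lower with β-elemene.

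The lipases that act outside the cell differed from each other in how far they moved. Lipg (chr18:74939322-74961263, GRCm38, minus strand) was almost silent with PBS, at 0.930, 0.544 and 0.624 CPM, from 24, 14 and 16 counts. With β-elemene it stood at 890.4, 612.8 and 1017 CPM, from 14478, 9413 and 16582 counts. The lowest treated library thus lay far above the highest PBS library. The means were 840 ± 207 CPM (SD, n = 3) and 0.699 ± 0.204 CPM (SD, n = 3), a log2 fold change of 10.22 (SE 0.33). The coefficient of variation was 24.6% with β-elemene and 29.1% with PBS, and β-elemene replicate 2 was the lowest of its group. Lipg took 0.0677% of all counts in the treated libraries. Without scaling factors, using library size alone, its log2 fold change was 9.58. Endothelial lipase is best known from endothelial cells, whose 5 markers summed to 34.15 to 42.78 CPM with β-elemene and 75.17 to 76.72 CPM with PBS. Only 2 of these 5 markers passed the filter. The highest, Vwf, stood at 36.4 ± 4.46 CPM and 75.7 ± 0.821 CPM (SD, n = 3), so the sum was nearly the level of Vwf alone. The part of endothelial cells in the Lipg difference was not tested.

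Lpl (chr8:68880491-68907448, plus strand) was the most abundant of the 10 genes in both groups, with 76941 to 86112 counts per library with β-elemene and 82909 to 95042 with PBS. After TMM scaling it stood at 4921, 5606 and 4718 CPM with β-elemene and at 3681, 3221 and 3506 CPM with PBS. The groups did not overlap, with a log2 fold change of 0.55 (SE 0.08), but the direction depended on the scaling: it was 0.24 with the upper quartile and -0.09 with library size alone. As a share of all counts, Lpl was 0.406% with β-elemene and 0.432% with PBS. A ratio of raw counts within a library does not depend on the scaling. The ratio of Lipg to Lpl counts was 0.181, 0.109 and 0.215 with β-elemene and 0.000252, 0.000169 and 0.000178 with PBS. Lipg thus went from a trace beside Lpl to at least 0.109 of its counts in each treated library.

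Angptl4 (chr17:33773750-33781830, minus strand), the inhibitor of lipoprotein lipase, moved the opposite way. It had 46, 62 and 31 counts in the PBS libraries, or 1.78, 2.41 and 1.21 CPM, with a mean of 1.80 ± 0.600 CPM (SD, n = 3). No count was found in any β-elemene library. A limit of 3 counts was set for the summed count of 0 over the β-elemene group. Against it, the TMM-scaled level of Angptl4 was at least 28.8-fold lower, and its level by library size alone at least 44.8-fold lower. Both bounds cover only the counting error of the 0 and take the PBS counts as exact. The gene was low even with PBS, where its 139 counts over 3 libraries carry the whole difference. Angptl4 is also made by adipocytes and other stromal cells. The 5 adipocyte markers summed to 0 CPM in each β-elemene library and to 2.26 to 3.26 CPM with PBS, led by Cfd at 1.48 ± 0.357 CPM (SD, n = 3), with Lep at 0 throughout. The 5 fibroblast markers summed to 1.56 to 3.01 CPM with β-elemene and 8.83 to 11.6 CPM with PBS. Col3a1, the highest of them by its mean over all 6 libraries, stood at 0.0409 ± 0.0355 and 4.87 ± 0.651 CPM (SD, n = 3). The β-elemene sum therefore came almost wholly from the other fibroblast markers. Angptl4 and both marker sums were therefore higher in the PBS libraries together, and the part of such cells in the Angptl4 difference was not tested.

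The enzymes of intracellular lipolysis did not move as one. Pnpla2 (chr7:141455198-141460743, plus strand), which takes the first fatty acid off triglyceride, stood at 50.19, 49.09 and 49.91 CPM with β-elemene and 48.84, 54.15 and 46.59 CPM with PBS. The treated libraries fell inside the PBS range, and the log2 fold change of -0.0038 (SE 0.07) was positive, at 0.04, with median-of-ratios size factors. With library size alone it was -0.64 and with the upper quartile -0.32, and both fits called it lower. Lipe (chr7:25379527-25398710, minus strand), which acts mainly on diacylglycerol, stood at 62.18, 57.75 and 61.87 CPM with β-elemene and 25.72, 26.69 and 28.5 CPM with PBS. All 3 treated libraries were above all 3 PBS libraries with little spread inside either group. The log2 fold change was 1.17 (SE 0.07), and 0.53 with library size alone. Mgll (chr6:88724412-88828360, plus strand), which finishes lipolysis and also breaks down the endocannabinoid 2-arachidonoylglycerol, stood at 22.63, 38.93 and 27.84 CPM with β-elemene and 6.24, 8.04 and 5.11 CPM with PBS. Its groups did not overlap either, but β-elemene replicate 2 was well above the others of its group. It was 4.60-fold higher (SE 0.25 on the log2 scale), from 368 to 598 counts per treated library and 131 to 207 counts per PBS library.

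The balance between these enzymes shifted in each library. The ratio of Lipe to Pnpla2 counts was 1.24, 1.18 and 1.24 with β-elemene and 0.527, 0.493 and 0.612 with PBS. Lipe counts therefore went from below those of Pnpla2 to above them, but Lipe has the longer transcript. Per kb of transcript, Pnpla2 stayed above Lipe in both groups, at 18.9 and 16.8 CPM per kb with β-elemene and 19.0 and 7.46 with PBS. The ratio of Mgll to Lipe counts was 0.364, 0.674 and 0.450 with β-elemene and 0.242, 0.301 and 0.179 with PBS. The Mgll to Lipe groups did not overlap, with the nearest libraries at 0.364 and 0.301. Abhd5, the coactivator of Pnpla2 and a gene of the list of other lipases, was singled out after its values were seen: it was found at 57.2 ± 4.81 CPM in the treated group and 44.5 ± 3.19 CPM in the PBS group (SD, n = 3), a log2 fold change of 0.36 that was 0.05 with the upper quartile and -0.27 with library size alone. G0s2, another Pnpla2 inhibitor, was also singled out then and was too low to test, with 0, 0 and 2 counts with β-elemene and 7, 4 and 1 with PBS.

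Plin2 and Hilpda both sit on lipid droplets. Plin2 stood at 777, 705.2 and 810.9 CPM with β-elemene and 509.9, 547.9 and 440 CPM with PBS. The groups did not overlap, with a log2 fold change of 0.61 (SE 0.08) after TMM scaling, 0.30 with the upper quartile and -0.02 with library size alone, where the direction turned. Within each library the ratio of Plin2 to Pnpla2 counts was 15.5, 14.4 and 16.2 with β-elemene and 10.4, 10.1 and 9.44 with PBS. The identity of these reads is uncertain: in the count table the symbol Plin2 carries the gene identifier of Gm12551, a pseudogene at chr4:86626857-86632221 in RefSeq GRCm38.p6 that overlaps the RefSeq span of Plin2 (chr4:86626910-86670217), and no entry carries the identifier of Plin2 itself. GENCODE M21 places Plin2 at chr4:86648386-86670060, outside the pseudogene. Hilpda (chr6:29272488-29275446, plus strand) stood at 6.95, 4.82 and 8.16 CPM with β-elemene and 5.66, 4.20 and 5.65 CPM with PBS. The lowest treated library lay inside the PBS range. Its log2 fold change was 0.37 (SE 0.19), positive with TMM, median-of-ratios and upper quartile scaling and -0.27 with library size alone. Without β-elemene replicate 2 the log2 fold change was 0.57, and Hilpda was called higher. Plin2 and Hilpda were not tested against each other.

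The pair of acyltransferases that make triglyceride split as well. Dgat1 (chr15:76502015-76511953, minus strand), the enzyme of the endoplasmic reticulum that re-esterifies incoming fatty acids, stood at 10.33, 10.35 and 10.3 CPM with β-elemene and 10.57, 9.83 and 9.71 CPM with PBS. The treated libraries fell inside the PBS range, with a log2 fold change of 0.04 (SE 0.10) that was -0.27 with the upper quartile and -0.60 with library size alone, both called lower. Dgat2 (chr7:99153658-99182719, minus strand), which is tied more to newly made fatty acids, stood at 17.9, 14.26 and 15.51 CPM with β-elemene and 5.04, 5.24 and 3.82 CPM with PBS. Each treated library was above each PBS library, with a log2 fold change of 1.76 (SE 0.14), and of 1.12 with library size alone. The ratio of Dgat2 to Dgat1 counts was 1.73, 1.38 and 1.51 with β-elemene and 0.476, 0.534 and 0.394 with PBS. Dgat2 counts were thus below those of Dgat1 in each PBS library and above them in each treated library.

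**Figure D2:**
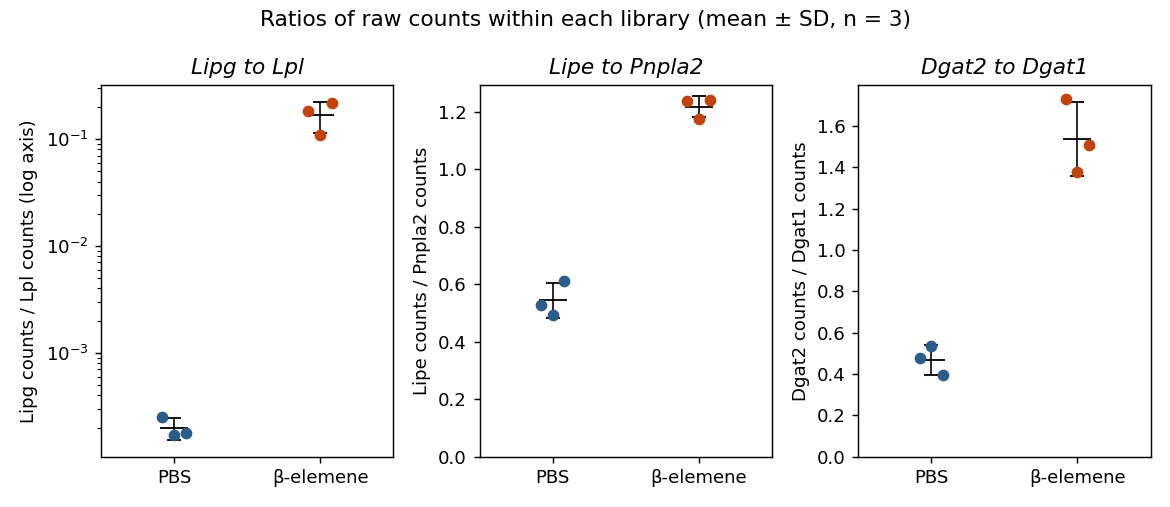
Ratios of raw counts within each library for Lipg to Lpl (log axis), Lipe to Pnpla2 and Dgat2 to Dgat1 (linear axes from 0), with points for libraries and bars for the mean ± SD of 3 libraries. The groups do not overlap in any panel: the mean Lipe to Pnpla2 ratio is 1.22 with β-elemene and 0.544 with PBS, and the mean Dgat2 to Dgat1 ratio is 1.54 and 0.468.

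**Figure D3:**
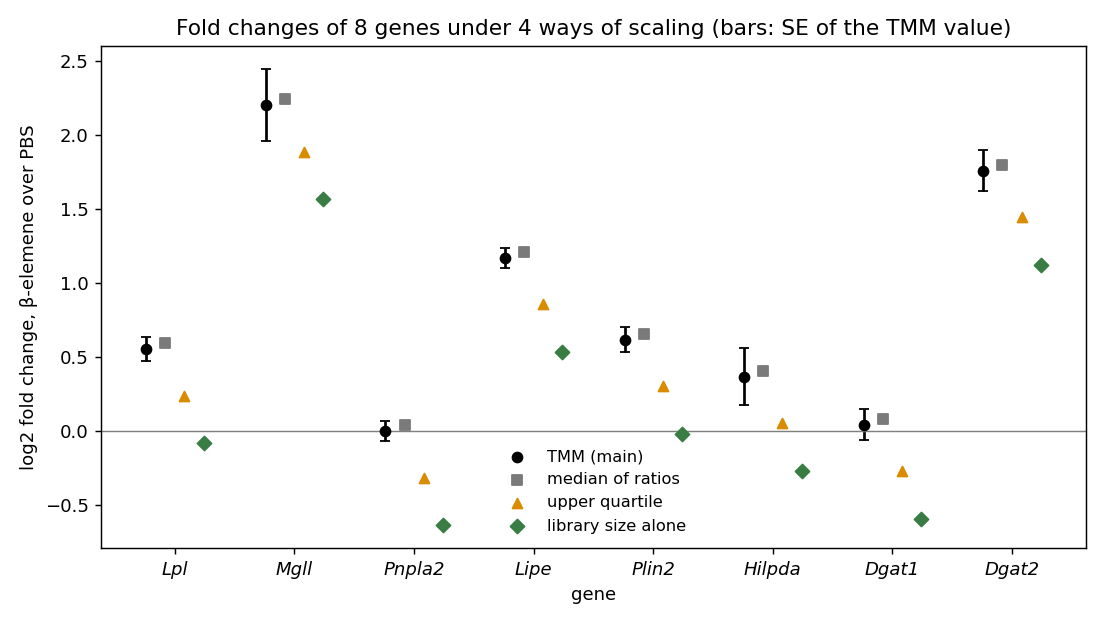
Log2 fold change of β-elemene over PBS for 8 of the genes under 4 ways of scaling the libraries, with bars for the SE of the TMM value; Lipg, which is far off the axis, and Angptl4, which has 0 counts in a group, are left out. Mgll, Lipe and Dgat2 stay above 0 under each scaling, while Lpl and Plin2 fall just below 0 with library size alone. Pnpla2, Dgat1 and Hilpda lie further below 0 there, at -0.64, -0.60 and -0.27. With the upper quartile, Pnpla2 and Dgat1 are also below 0, at -0.32 and -0.27.

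The log2 fold changes of Lipg, Mgll, Lipe and Dgat2 were above 0 under each of the 4 scalings. That of Angptl4 was below 0 under each, but with 0 counts in the β-elemene libraries no scaling could turn its sign. With library size alone, 4 of the 10 genes were called higher (Lipg, Mgll, Lipe and Dgat2), beside 18.9% of all genes, and 3 were called lower (Angptl4, Pnpla2 and Dgat1), beside 69.8% of all genes. With the upper quartile 6 were called higher, beside 25.7% of all genes, and the same 3 were called lower, beside 57% of all genes. Library size alone moved the median of all genes by -0.64 on the log2 scale, and the upper quartile moved it by -0.32.

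Levels of different genes were compared per kb of transcript, taking the longest coding transcript of each gene in GENCODE M21 that has a RefSeq partner. With PBS, Lpl led at 843 ± 56.5 CPM per kb (SD, n = 3), followed by Plin2 at 264 ± 29.0, Pnpla2 at 19.0 ± 1.48 and Lipe at 7.46 ± 0.391. Dgat1 at 5.32 ± 0.249 and Hilpda at 5.26 ± 0.858 CPM per kb came next and overlapped, as did Dgat2 at 2.08 ± 0.340 and Mgll at 1.62 ± 0.371. Angptl4 at 0.544 ± 0.181 and Lipg at 0.185 ± 0.0538 CPM per kb were the lowest. With β-elemene, Lpl at 1235 ± 113 and Plin2 at 405 ± 28.6 CPM per kb still led, and Lipg came next at 222 ± 54.6, after the last place with PBS. Pnpla2 at 18.9 ± 0.217 lay just above Lipe at 16.8 ± 0.684 CPM per kb, and their libraries did not overlap. Mgll at 7.47 ± 2.09, Dgat2 at 7.03 ± 0.817, Hilpda at 6.76 ± 1.72 and Dgat1 at 5.47 ± 0.0136 CPM per kb followed, and each overlapped the next. Dgat1 and Hilpda ranked above Dgat2 and Mgll with PBS, and below them with β-elemene. There Hilpda overlapped both, while Dgat1 did not. The highest β-elemene library of Dgat1, at 5.48 CPM per kb, lay below the lowest of Mgll, at 5.67, and of Dgat2, at 6.30.

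**Figure D4:**
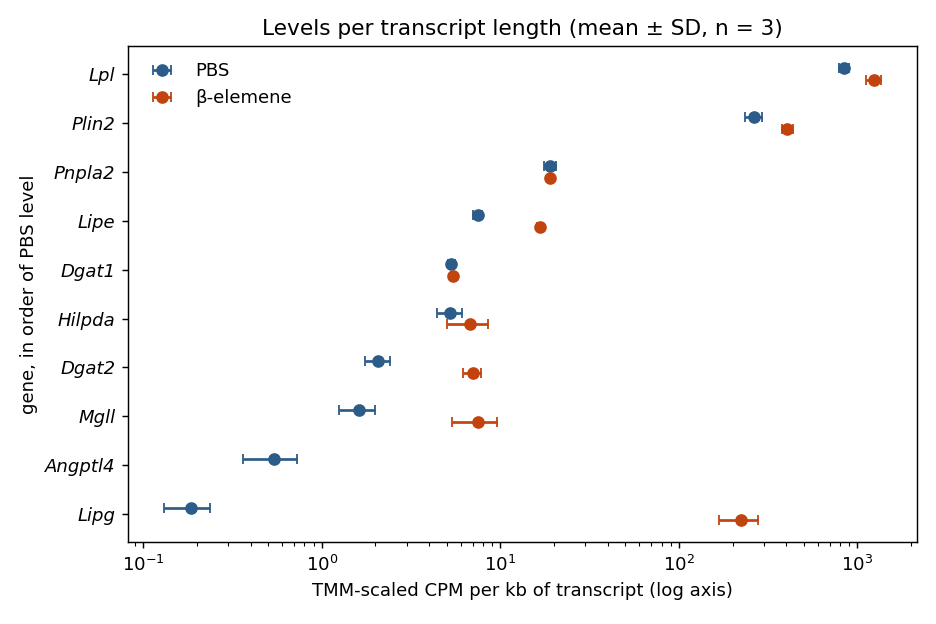
Level of each gene in TMM-scaled CPM per kb of transcript on a log axis, ordered by the PBS level, with points for the group mean and bars for the SD of 3 libraries. Lipg goes from 0.185 to 222 CPM per kb; Angptl4 has no β-elemene point because its level there is 0, and the shifts of Lpl and Plin2 turn direction with library size alone.

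Some genes followed the same course over the 6 libraries. Likeness was the root mean square difference of mean-centred log2(CPM + 0.1), found for the genes with a log2 fold change of at least 1 in size, and it is a description over 6 libraries in 2 groups. The nearest to Lipg were Tnfsf15, a cytokine of the TNF family, with a difference of 0.30 and 366 ± 24.2 against 0.311 ± 0.00102 CPM (SD, n = 3), and Rsad2, the interferon-induced antiviral protein viperin, with a difference of 0.41. The nearest to Mgll were Sgms2, a sphingomyelin synthase, at 0.15, and Plpp3, a lipid phosphate phosphatase, at 0.16. Both of them also had their highest level in β-elemene replicate 2, at 16.4 CPM for Sgms2 and 52.4 CPM for Plpp3. Copa, a coatomer subunit, and Ppp1r12a, a subunit of myosin phosphatase, were nearest to Lipe, at 0.02 and 0.03. Ccng2, a cyclin, and Acvr1, an activin receptor, were nearest to Dgat2, at 0.09 and 0.10. Slco2b1, an organic anion transporter, and Olfml3, a secreted glycoprotein, were nearest to Angptl4, at 0.19 and 0.23. Both kept counts in the β-elemene libraries where Angptl4 had none, with log2 fold changes of -4.36 and -4.08. With 0 counts, the β-elemene value of Angptl4 in this measure is set by the added 0.1 CPM, so its nearest genes depend on that choice.

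Other genes of lipid handling were read from 7 lists that leave out the 10 genes. Of 123 genes listed, 96 were tested, and 34 were called higher, 45 lower and 17 not called. The lists were not tested as sets, and each count stands beside the 36.6% higher and 40.2% lower of all genes. P-values below are from edgeR's quasi-likelihood test, adjusted by Benjamini-Hochberg over all genes. Among other lipases and their cofactors, 4 of 16 were higher and 9 lower, with a median log2 fold change of -0.45. Pla2g15, the lysosomal phospholipase, fell from 642 ± 22.3 to 44.9 ± 1.33 CPM (SD, n = 3; log2 fold change -3.84, adjusted p = 2.13e-14 by edgeR). Dagla, which releases 2-arachidonoylglycerol, the substrate of Mgll, fell from 13.4 ± 1.94 to 1.81 ± 0.407 CPM (SD, n = 3; log2 fold change -2.88, adjusted p = 5.28e-09 by edgeR). Abhd16a, a phosphatidylserine lipase, rose to 175 ± 5.86 from 51.1 ± 1.23 CPM (SD, n = 3; log2 fold change 1.78, adjusted p = 4.37e-12 by edgeR). Ddhd1, a phospholipase, was called higher at a log2 fold change of 0.59, which was -0.04 with library size alone. The most abundant lipase of the list, lysosomal acid lipase Lipa, stood at 650 ± 51.2 and 660 ± 52.0 CPM (SD, n = 3), a log2 fold change of -0.02 that was 0.02 with median-of-ratios factors.

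Of 10 tested genes that act on lipoprotein lipase, 4 were higher and 3 lower, with a median of 0.23. Sorl1, a sorting receptor, rose from 6.48 ± 0.690 to 17.7 ± 1.52 CPM (SD, n = 3; log2 fold change 1.45, adjusted p = 6.68e-08 by edgeR). Lmf2, a relative of the lipase maturation factor Lmf1, was called higher at a log2 fold change of 0.68, which was 0.04 and not called with library size alone. Lrp1, a receptor that clears lipase and remnants, fell from 866 ± 15.5 to 337 ± 36.9 CPM (SD, n = 3; log2 fold change -1.36, adjusted p = 1.73e-09 by edgeR). Furin, a protease that cleaves lipases and their inhibitors, fell by 0.86 on the log2 scale (adjusted p = 0.00101 by edgeR). Apoe, the most abundant of the list, was called higher at 0.46 (log2), which was -0.17 with library size alone. Gpihbp1, the capillary anchor of lipoprotein lipase, had at most 1 count in a library.

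Among other droplet proteins, 5 of 12 were higher and 6 lower, with a median of -0.23, and Plin1, Plin4, Plin5 and the 3 Cide genes were too low to test. Plin3, another droplet coat protein, was singled out after its values were seen, at 43.4 ± 4.33 CPM in the treated group and 92.9 ± 5.44 CPM in the PBS group (SD, n = 3). Acsl3, an acyl-CoA synthetase found on growing droplets, fell from 22.9 ± 3.40 to 6.14 ± 2.17 CPM (SD, n = 3; log2 fold change -1.91, adjusted p = 5.31e-05 by edgeR). Fitm2, which is needed for droplets to bud, fell by 1.18 on the log2 scale (adjusted p = 0.000498 by edgeR). Tmem159, which encodes a partner of seipin, was called higher at 0.72 (log2), and Aup1 at 0.54 (log2). With library size alone these were 0.08 and -0.10, neither called.

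Of 16 tested genes of triglyceride and sterol ester synthesis, 5 were higher and 7 lower, with a median of -0.18. Agpat9, the glycerol-3-phosphate acyltransferase now named Gpat3, rose from 0.298 ± 0.175 to 2.34 ± 0.383 CPM (SD, n = 3; log2 fold change 2.95, adjusted p = 1.09e-05 by edgeR). Gk, glycerol kinase, rose from 55.7 ± 5.57 to 182 ± 14.4 CPM (SD, n = 3; log2 fold change 1.71, adjusted p = 5.93e-10 by edgeR). Lpin1, the phosphatase that makes the diacylglycerol used by Dgat1 and Dgat2, fell from 5.04 ± 0.787 to 0.233 ± 0.165 CPM (SD, n = 3; log2 fold change -4.42, adjusted p = 7.67e-08 by edgeR), while Lpin2, singled out after its values were seen, stood at 115 ± 3.52 and 55.4 ± 4.07 CPM. Gpd1, which makes glycerol-3-phosphate, fell by 1.88 on the log2 scale (adjusted p = 0.000203 by edgeR). Soat1, the most abundant of the list and the enzyme that makes cholesteryl esters, fell from 358 ± 23.9 to 189 ± 1.10 CPM (SD, n = 3; log2 fold change -0.92, adjusted p = 8.43e-09 by edgeR).

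Of 10 tested genes of fatty acid uptake and binding, 6 were higher and 3 lower, with a median of 0.33. Acsl1, which activates long-chain fatty acids, rose from 91.9 ± 8.32 to 1312 ± 119 CPM (SD, n = 3; log2 fold change 3.83, adjusted p = 4.29e-13 by edgeR). Fabp3, a fatty acid binding protein, rose from 16.0 ± 1.66 to 141 ± 8.98 CPM (SD, n = 3; log2 fold change 3.13, adjusted p = 7.95e-13 by edgeR). Slc27a1, a fatty acid transporter, fell by 1.34 on the log2 scale (adjusted p = 6.08e-10 by edgeR), and Fabp5 fell by 0.44 on the log2 scale (adjusted p = 0.00344 by edgeR). Cd36, the scavenger receptor and the most abundant of the list, stood at 2102 ± 26.7 and 2156 ± 161 CPM (SD, n = 3), a log2 fold change of -0.04 that was 0.0042 with median-of-ratios factors. Of 17 tested genes of fatty acid oxidation, 5 were higher and 8 lower, with a median of -0.17. Acadl, long-chain acyl-CoA dehydrogenase, rose by a log2 fold change of 1.52 (adjusted p = 1.04e-10 by edgeR). Acadm, the medium-chain dehydrogenase, fell by 0.93 on the log2 scale (adjusted p = 1.80e-07 by edgeR). Cpt1a, the gate of mitochondrial import, was called higher at 0.56 (log2), which was -0.07 with library size alone.

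Of 15 tested transcription factors and coactivators of lipid genes, 5 were higher and 9 lower, with a median of -0.94. Pparg, the fat-storage receptor that acts on Lpl, Angptl4 and Plin2 in other tissues, fell from 20.5 ± 3.35 to 4.55 ± 0.350 CPM (SD, n = 3; log2 fold change -2.17, adjusted p = 8.41e-09 by edgeR). Its partner Rxra fell by 2.51 on the log2 scale (adjusted p = 1.06e-05 by edgeR), the coactivator Ppargc1b fell by 2.10 (adjusted p = 9.79e-11 by edgeR) and Ppard fell by 1.20 (adjusted p = 1.97e-08 by edgeR). Cebpa, a myeloid and fat cell factor, fell from 264 ± 15.5 to 16.6 ± 1.20 CPM (SD, n = 3; log2 fold change -3.99, adjusted p = 4.61e-14 by edgeR), while Cebpb was called higher at 0.75 (log2), and 0.11 and not called with library size alone. The hypoxia factors differed in direction: Hif1a rose from 144 ± 4.95 to 333 ± 41.9 CPM (SD, n = 3; log2 fold change 1.21, adjusted p = 4.69e-08 by edgeR) and Epas1 fell from 8.25 ± 1.35 to 1.27 ± 0.564 CPM (SD, n = 3; log2 fold change -2.69, adjusted p = 3.25e-07 by edgeR). The oxysterol receptors Nr1h2 and Nr1h3 were called higher at 0.65 and 0.47 (log2), which were 0.02 and -0.17 with library size alone, neither called. Srebf1, the factor of fatty acid synthesis, stood at 49.7 ± 1.69 and 50.2 ± 3.88 CPM (SD, n = 3), a log2 fold change of -0.01 that was 0.03 with median-of-ratios factors.

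**Figure D5:**
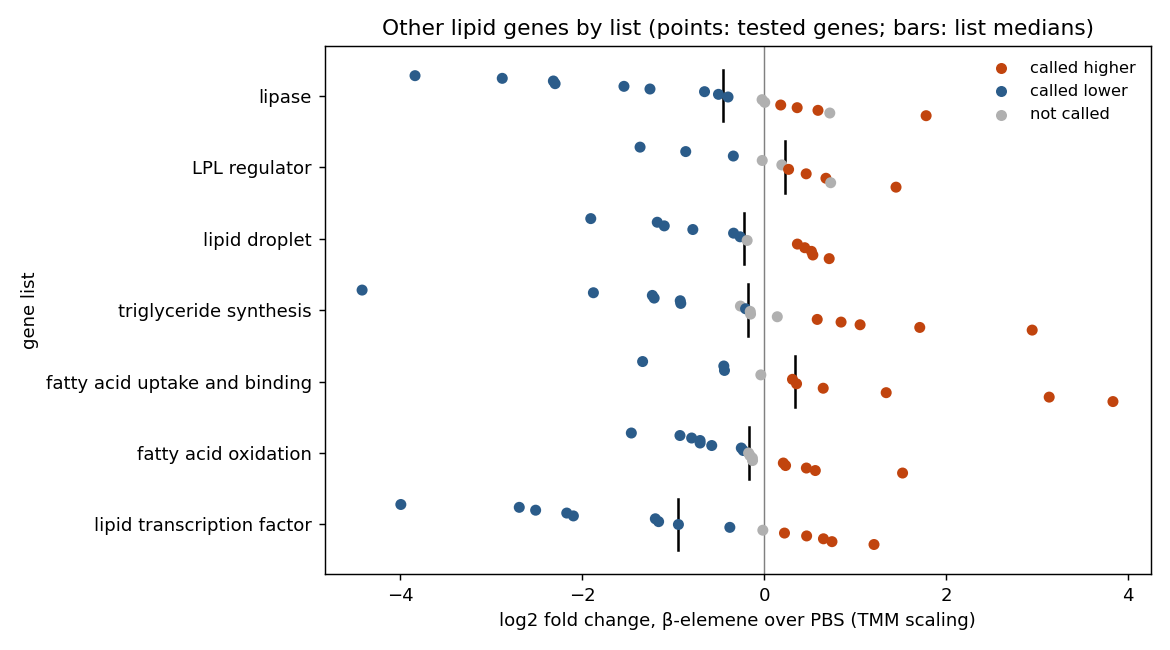
Log2 fold change of β-elemene over PBS, with TMM scaling, for each tested gene of the 7 lists of other lipid genes, coloured by the edgeR call, with a bar at each list's median. Each list holds genes called in both directions, and the medians run from -0.94 for the transcription factors to 0.33 for fatty acid uptake and binding; library size alone shifts the median of all genes by -0.64.

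Pathway names in the count table itself gave a last view, chosen after the data were seen. The counts of calls below, after TMM scaling, stand beside 36.6% higher and 40.2% lower of all genes tested. With library size alone these shares of all genes were 18.9% and 69.8%. No pathway was tested as a set. Glycerolipid metabolism held 6 of the 10 genes (Lipg, Lpl, Mgll, Pnpla2, Dgat1 and Dgat2), and of its 38 other tested genes 18 were called higher, 11 lower and 9 were not called. PPAR signaling held Lpl, Angptl4 and Plin2, and of its 44 other tested genes 15 were called higher and 22 lower. Regulation of lipolysis held Mgll, Pnpla2 and Lipe, and of its 30 other tested genes 14 were called higher and 13 lower. Median log2 fold changes of these other genes were 0.12, -0.20 and -0.05. Cholesterol metabolism held Lipg, Lpl and Angptl4, with 12 of its 30 other tested genes called higher and 11 lower. Thermogenesis held Mgll, Pnpla2 and Lipe, with 65 of its 175 other tested genes called higher and 46 lower. No other pathway name held 3 or more of the 10 genes.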

How the data were processed

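Bulk RNA of 6 macrophage libraries was sequenced, 3 per group, from stranded mRNA kits, with RNA integrity numbers of 7 or more and paired reads of 125 or 150 bases, per the labels' protocols. Per the submitters' processing notes, the tools include HISAT2 2.2.1.0 and the build was GRCm38.p6 (mm10). What the authors deposited is a table of raw counts per gene. How reads were counted, and whether by strand, is not given in the sources used here. So reads that antisense or near-identical genes share may be assigned to either.

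The 10 genes and the 7 lists were chosen with earlier results of these data known. Samples were grouped and numbered by their titles. The table held 21878 genes, 6562 of them with no count, and 27 symbols turned into dates were restored by gene identifier. Low genes were removed by filterByExpr (minimum count 10, minimum total 15), and the rest were scaled with TMM and fitted with edgeR 4.0.16 in R 4.3.3 (robust quasi-likelihood, group as the only term, 4 residual degrees of freedom), with Benjamini-Hochberg adjustment over 11459 genes at 0.05. Each SE was the size of the log2 fold change over the square root of F. The fit was tested on simulated counts in which only a small part of the genes was changed. Most genes were called in these data, so that test cannot tell whether TMM scaling holds for them. No replicate pair agreed within counting noise (chi-square per degree of freedom 3.7 to 13.2). From each list the text names the 2 largest called rises and falls with a mean of at least 1 CPM and the most abundant gene, besides all transcription factors and the genes said to be singled out later; 1 gene that this rule selects is not reported here. The alternatives were median-of-ratios factors, the upper quartile, library size alone, no filter, 1 CPM in 3 libraries, DESeq2 1.42.0, voom in limma 3.58.1, a replicate block and leaving out each library. Coordinates and transcript lengths are from GENCODE M21 (GRCm38), and promoters are from RefSeq.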

Additional observations from a re-analysis of the deposited data

How the results depend on the processing

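Filters, DESeq2, limma-voom and leaving out any 1 library changed no count of calls by over 1.5 times, for all genes, the 10 genes or any list. Size factors decided the rest. Over all genes, 4189 were called higher and 4602 lower with TMM, 4385 and 4385 with median-of-ratios factors, 2947 and 6528 with the upper quartile, and 2166 and 8003 with library size alone. With the upper quartile, 3 of the 10 genes were called lower, and calls of higher fell to 2 lipases, 2 regulators of lipoprotein lipase, 3 droplet genes, 2 oxidation genes and 3 transcription factors. With library size alone, 3 of the 10 genes were called lower, 1 lipase was higher, 1 regulator higher and 6 lower, 0 droplet genes higher, 3 uptake genes higher and 6 lower, 1 oxidation gene higher and 15 lower, and 1 transcription factor higher. Log2 fold changes that turned to below 0 with library size alone were Lpl -0.0861, Plin2 -0.0239, Hilpda -0.27, Dgat1 -0.60, Apoe -0.17, Aup1 -0.10, Cpt1a -0.0741, Ddhd1 -0.0446, Mlxip -0.41 and Nr1h3 -0.17, and with the upper quartile Dgat1 -0.27 and Mlxip -0.0910. With median-of-ratios factors, and with DESeq2, Pnpla2 was 0.0365, Lipa 0.0173, Srebf1 0.0259 and Cd36 0.0042, all without a call. Leaving out each library, Pnpla2 ran from -0.0517 to 0.0588, Lipa from -0.0720 to 0.0466 and Srebf1 from -0.0670 to 0.0436. The scalings shift all genes together, and the other turns are of values near 0. Same-numbered libraries of the groups did not deviate together (correlations -0.03, 0.06 and 0.02). No sign of pairing by number was thus seen, but so few libraries cannot exclude it. With a replicate block, 4188 genes were called higher and 4605 lower, and the call of Hilpda changed: at a log2 fold change of 0.35 it was called higher, as the only added one of 7 among the 10 genes. Depth limits Angptl4, with 139 counts in all, and Hilpda, Dgat1 and Dgat2, with at most 291 counts per library.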
